A study of Mus musculus with 6 samples.

Results

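The genes described here are 41 genes of transport between the endoplasmic reticulum (ER) and the Golgi apparatus, which comprise the subunits of the COPI and COPII vesicle coats, the Arf and Sar1 GTPases, golgins and stacking proteins, SNAREs and cargo receptors. They were chosen by name, because Golgi function depends on an isoform of dystonin, the protein encoded by Dst. Earlier results of these data were known when the genes were chosen. Of the 41 genes, 40 had at least 1 tested probe, among 13675 named genes with a tested probe in the series, and they were read by 74 probes. Sec31a, which encodes the outer COPII coat subunit, had no matching probe. Transcripts were measured in dorsal root ganglia, which hold the cell bodies of sensory neurons with their glia, from postnatal day 4 animals, namely 3 wild-type (WT) mice and 3 dt27J mice. The dt27J allele is a mutation of Dst, whose product links cytoskeletal filaments and whose loss causes a sensory neuropathy. All 6 animals were of the C57BL/6 background and came from 2 litters, the WT animals were littermate controls, and the labels name no treatment of the animals. The labels give the genotype as dt27J without zygosity, and the tissue is whole ganglia, so fewer cells of a type and less RNA per cell cannot be told apart.

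Newly made secretory and membrane proteins leave the ER in vesicles coated by COPII, which the GTPase Sar1 recruits. COPI vesicles, recruited by Arf GTPases, carry proteins back from the Golgi to the ER and between Golgi cisternae. Golgins catch incoming vesicles, SNAREs fuse them with their target, and cargo receptors select the proteins to be carried. Sensory neurons send membrane proteins and neuropeptides from the cell body down very long axons, and this traffic begins with the same steps.

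Total RNA of each animal was hybridised to 1 single-colour array, so each array stands for 1 animal and p-values measure the spread between animals. Per array, 63.1% to 71.4% of the 41174 probes other than controls were well above background, no probe was saturated, and the number of arrays limits the precision. Values below are log2 of the signal over the 75th percentile of its array, called log2 units. The sample descriptions carry 2 dates: the third replicate of each genotype (WT 3 and dt27J 3) has the second date and the others have the first. The labels do not tie the litters to the dates, so differences between dates, slides and litters cannot be told apart. Dst itself was lower on all 3 of its probes, the brightest of which stood at 1.16, 1.44 and 1.1 log2 units in WT and at -1.63, -1.77 and -0.96 in dt27J (difference -2.68, SE 0.26, n = 3 arrays per genotype, adjusted p = 0.0341, limma with Benjamini-Hochberg adjustment). The labels do not say which exons of Dst the mutation touches, so its probes check the labels only to an unknown extent. All 12 sensory neuron markers of the labelled tissue were above background and tested, and 11 of them had a negative difference (median -0.58, 1 past the threshold). Markers of other tissues differed between arrays. Of 10 spinal cord markers 7 were tested, and Gad2, Slc6a5 and Mog were too dim to be tested. The summed signal of the 7, relative to the 75th percentile, was 11.0 and 9.60 in WT 1 and WT 2. It lay between 0.294 and 0.507 on the other 4 arrays, WT 3 included. The sum of 12 skeletal muscle markers lay between 24.7 and 92.1 in WT and between 83.6 and 161 in dt27J, and 5 of the 12 passed the threshold as higher. The sum of 7 fibroblast and meninges markers lay between 299 and 602 in WT and between 473 and 949 in dt27J. All 7 endothelium markers had positive differences (medians 0.80 and 0.61 on the dates, 1 past the threshold), and their sum was higher on every dt27J array (18.6 to 34.1) than on any WT array (13.2 to 18.5). The sum of the 5 tested macrophage markers did not overlap either, at 3.18 to 4.13 in WT and 4.36 to 6.12 in dt27J. Of these markers only Aif1 was separate on its own (difference 1.01). Csf1r, C1qa, C1qb and Cx3cr1 gave 0.01, 0.27, -0.18 and 0.37 with overlap, and the median of the list was 0.28 on the first date and -0.13 on the second. The part of these tissues in the results below was not tested.

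As over all tested probes, few differences of the transport genes passed the test. Of 74 probes, 1 passed an adjusted p of 0.05 as higher in dt27J, where 1.31% of all 26248 tested probes did so, and none passed as lower, where 1.88% did so. The probe was the dimmest of 3 for Golga5. At an unadjusted p under 0.05, 11 of the 74 were higher and 2 were lower, against a background of 12.0% higher and 15.7% lower, so the share of higher probes (14.9%) was near the background and that of lower probes (2.70%) was below it. Every dt27J array lay above every WT array on 17 probes of 13 genes (23.0% of the probes, background 12.8%) and below on 3 probes (background 16.0%), which were 2 of Copg2 and the probe of Gorasp1. Taking the brightest probe of each gene, the median difference over the 40 genes was 0.18 log2 units, with 24 positive and 16 negative, and over all named genes it was -0.03, with 52.4% negative. The sizes were modest: 9 of the 40 genes (22.5%) differed by more than 0.5 log2 units in either direction and none by more than 1, whereas 35.8% and 8.98% of all named genes did so. The median standard error of a member's difference was 0.23 log2 units, so many of these differences were no larger than their error.

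**Figure D1:**
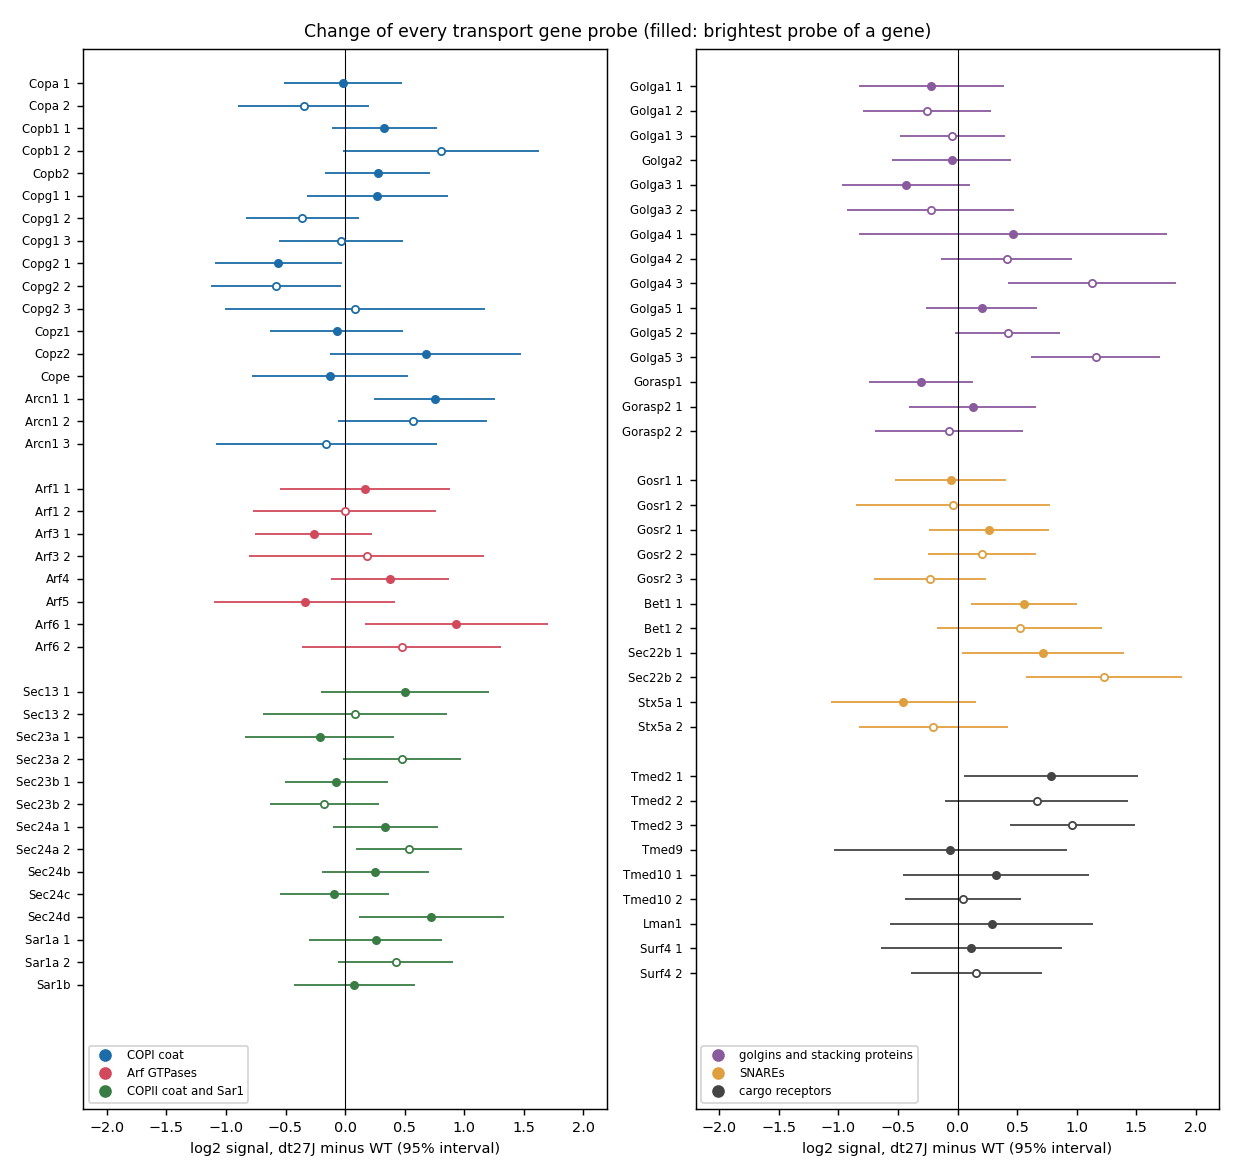
Difference in log2 signal (dt27J minus WT, horizontal axis) of each of the 74 probes, with its 95% interval from the limma fit on 3 arrays per genotype. Probes are numbered by brightness within a gene, filled points are the brightest, and colours are roles; most intervals cross 0, and the dimmest Golga5 probe at 1.16 is the 1 probe past the threshold.

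Some promoters of these genes hold short sequence elements that the choice of the genes did not use. RefSeq promoter windows (build GRCm38.p6, 250 bases before to 50 after an annotated start, 300 bases in all) were found for 36 of the 41 genes, in 43 windows, and not for Tmed2, Arcn1, Golga4, Lman1 and Arf6. They were searched on both strands for elements known from stress of the Golgi and the ER. The Golgi apparatus stress response element (GASE), ACGTGGC, known as a site of TFE3, was in 14 of the 43 windows (32.6%), of 13 genes, and in 2.58% of all 32851 windows and 3.54% of the 13922 windows of genes with a tested probe. The unfolded protein response element (UPRE), TGACGTGG, which shares the letters ACGTGG with GASE, was in 7 windows (16.3%) of 6 genes, namely Copb1, Copb2, Arf1, Sec23a, Sec24d and Stx5a, and in 0.676% of all windows. The ER stress elements ERSE, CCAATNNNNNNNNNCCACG, and ERSE-II were in none of the 43 windows and in 0.119% and 0.037% of all windows. The cyclic AMP response element, TGACGTCA, was in 2 windows, those of Cope and Gosr2 (4.65%, all windows 1.79%). These shares are descriptions, and the windows were not matched for base composition. The GASE matches are printed below with up to 10 flanking bases because GASE was found in more of these windows than the other 4 elements; each runs 5′ to 3′ on the strand of the gene, and capitals mark the element, written ACGTGGC where it lies on that strand and GCCACGT where it lies on the other.
Copg1 (chr6:87887933-87887959, plus strand): gctcagggcgACGTGGCgggcgggagt
Copz2 (chr11:96849905-96849925, plus strand): cggaggcctgGCCACGTccgc
Arf1 (chr11:59228228-59228254, minus strand): gcaggcgctgACGTGGCtgccgtcagc
Arf5 (chr6:28423523-28423549, plus strand): gaggggcgggGCCACGTgacgtcgggc
Sec13 (chr6:113740668-113740694, minus strand): gttttgagctGCCACGTccgaggccgt
Sec31a (chr5:100416206-100416232, minus strand): ggctgcggctGCCACGTtggagcggag
Sec23a (chr12:59011993-59012019, minus strand): ctcccctttgACGTGGCagaggcggca
Sec24c (chr14:20674236-20674262, plus strand): cctaaggccgACGTGGCagaaggagtg
Sec24d (chr3:123267462-123267488, plus strand): cgggcgcctgACGTGGCactagcaacc
Sar1a (chr10:61680117-61680143, plus strand): gacagacgctGCCACGTcttaccccgc
Golga3 (chr5:110176874-110176900, plus strand): cccttgcacaGCCACGTcctaccggag
Stx5a (chr19:8741422-8741448, plus strand): tggcgcagcaGCCACGTcaccgagtta
Stx5a (chr19:8741455-8741473, plus strand): cgtctaggtgACGTGGCgg
Tmed9 (chr13:55593121-55593147, plus strand): ccgctgggctACGTGGCtcggcagtct

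Of the 15 matches found in these windows, 7 began upstream of the start, those of Sec13 and Tmed9 running across it; the Arf1 site is counted for both of its overlapping windows. Genes with and without the element had values of either sign. Of the 12 measured genes with a GASE, 6 had a positive difference, from 0.72 for Sec24d to -0.45 for Stx5a (median 0.05), and of the 23 measured genes with a window and no GASE, 13 had a positive difference (median 0.12). Sec24d and Sec22b, both with dt27J arrays all above the WT arrays, are shown in full as a pair with and without the elements. Capitals in the Sec24d window mark the overlapping UPRE and GASE, and the Sec22b window holds none of the 5 elements, which says only that these letters are not in it.
Sec24d (chr3:123267246-123267545, plus strand): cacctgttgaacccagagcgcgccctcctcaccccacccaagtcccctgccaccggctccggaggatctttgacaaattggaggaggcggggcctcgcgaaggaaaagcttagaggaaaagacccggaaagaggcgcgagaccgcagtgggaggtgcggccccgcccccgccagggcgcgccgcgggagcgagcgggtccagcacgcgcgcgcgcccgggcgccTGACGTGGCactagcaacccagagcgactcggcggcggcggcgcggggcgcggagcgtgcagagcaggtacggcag
Sec22b (chr3:97900977-97901276, plus strand): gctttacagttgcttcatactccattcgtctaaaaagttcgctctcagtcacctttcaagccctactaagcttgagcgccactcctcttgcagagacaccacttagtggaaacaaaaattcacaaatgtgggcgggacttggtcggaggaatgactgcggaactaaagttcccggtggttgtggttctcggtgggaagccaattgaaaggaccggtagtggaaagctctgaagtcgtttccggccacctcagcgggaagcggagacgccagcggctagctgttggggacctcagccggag

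**Figure D2:**
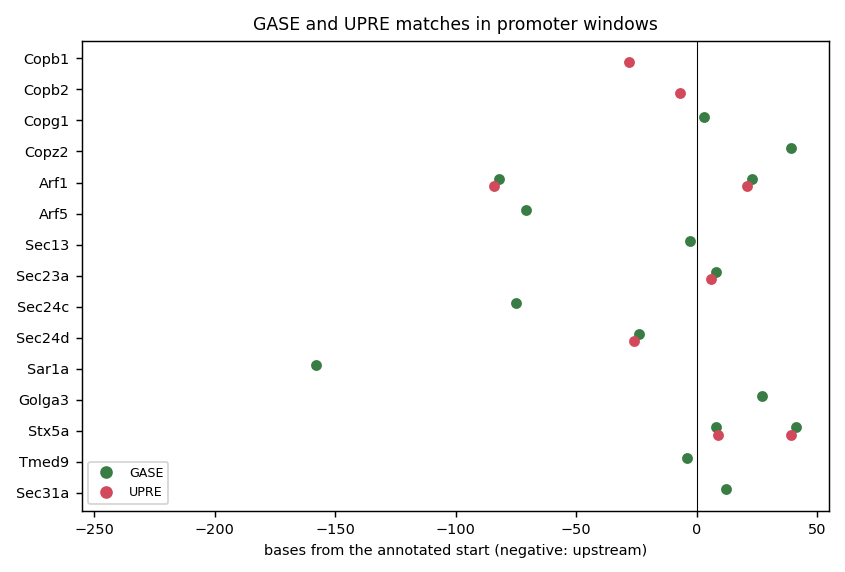
Position of each GASE and UPRE match (first base, horizontal axis, in bases from the annotated start, negative upstream) in the promoter windows of the 15 genes that hold either. Most matches lie within 100 bases of the start, and Sar1a has the one farthest upstream.

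Among the 9 COPI coat genes, 5 had a positive and 4 a negative difference (median 0.27) and none of their 17 probes passed the threshold (smallest adjusted p = 0.0847, limma). The median was 0.23 on the first date and -0.28 on the second, and 0.15 without WT 2. Arcn1, which encodes the delta subunit, had the smallest p. Its brightest probe stood at -0.25, -0.48 and -0.04 log2 units in WT 1, 2 and 3 and at 0.66, 0.20 and 0.63 in dt27J 1, 2 and 3 (difference 0.75, SE 0.21, 95% interval 0.24 to 1.26). All dt27J arrays lay above all WT arrays, on both dates, with differences of 0.79 and 0.68. The 2 dimmer Arcn1 probes had differences of 0.57 and -0.16 with overlapping arrays, so the probes of this gene did not go one way.

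The gamma subunit has a pair of paralogs. On their brightest probes the differences had opposite signs, but each gene had mixed signs over its 3 probes. Copg2 stood at 1.95, 1.53 and 2.00 log2 units in WT and at 1.43, 1.02 and 1.36 in dt27J on its brightest probe (difference -0.56, SE 0.22, adjusted p = 0.165, limma). Its second probe gave -0.58 (adjusted p = 0.161), and on both probes the dt27J arrays all lay below the WT arrays. These were the 2 probes with a negative difference at an unadjusted p under 0.05 among all 74. The third Copg2 probe, which was well above background on 2 of the 3 WT arrays, gave 0.08 with an SE of 0.46. Copg1 gave 0.27, -0.36 and -0.04 on its 3 probes, with overlapping arrays on each.

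Copz2, one of a pair of zeta subunit genes, stood at -0.60, -0.48 and -0.06 log2 units in WT and at 0.73, 0.57 and -0.41 in dt27J. Both dt27J arrays of the first date lay above all WT arrays and that of the second date lay below WT 3, so the difference was 1.19 on the first date and -0.35 on the second (both dates together 0.68, SE 0.34, adjusted p = 0.241, limma). Copz1, the other zeta gene, gave -0.07 (SE 0.23). Among the other subunits, the beta subunit Copb1 gave 0.33 and the beta-prime subunit Copb2 0.27 on their brightest probes, each with all dt27J arrays above all WT arrays. On no WT array was the dimmer Copb1 probe well above background, so it entered the test through its dt27J arrays alone. It is also counted among the probes with every dt27J array above every WT array. Its difference was 0.81 (SE 0.35, interval -0.02 to 1.63, adjusted p = 0.187, limma). The fold was 1.26 with each WT array at its dimmest signal well above background, or at the probe's own value where higher. Those WT values are not known upper limits, so 1.26 is not a lower bound. The alpha subunit Copa gave -0.02 and the epsilon subunit Cope -0.13, both with SEs above 0.2.

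The 5 Arf GTPases, of which Arf1 is the classical recruiter of COPI and Arf6 works at the plasma membrane and in endosomal recycling, had a median difference of 0.17 and no probe past the threshold (smallest adjusted p = 0.124). The median was -0.17 on the first date, which is also its value without WT 3 or without dt27J 3, and 0.57 on the second, and it was -0.105 with array weights. Arf6 had the largest difference of any of the 40 genes on the brightest probe. It stood at 3.47, 2.79 and 2.42 log2 units in WT and at 3.98, 3.46 and 4.04 in dt27J (difference 0.94, SE 0.32, 95% interval 0.17 to 1.70). WT 1 and dt27J 2 overlapped narrowly, and the other arrays were separate. The dimmer Arf6 probe gave 0.48, with a difference of -0.07 on the first date and 1.57 on the second.

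Other Arf genes also had differences of opposite sign on the dates. Arf1 stood at 2.70, 2.88 and 2.53 log2 units in WT and at 2.43, 2.63 and 3.56 in dt27J, so dt27J 3 was the highest and dt27J 1 the lowest of the 6 arrays. Its difference was -0.26 on the first date and 1.03 on the second, and its dimmer probe gave -0.48 and 0.96. Arf5 stood at -0.18, -0.10 and -0.14 in WT and at -0.74, -1.13 and 0.43 in dt27J. Its first-date arrays lay below all WT arrays and its second-date array above them, giving -0.79 and 0.57. Arf4 gave 0.38 (SE 0.21) with all dt27J arrays above all WT arrays, and Arf3 gave -0.26 and 0.18 on its probes. The interaction of genotype and date, which tests whether the difference itself changed with the date, had an unadjusted p under 0.05 on 5 of 8 Arf probes, where 27.5% of all tested probes did, and an adjusted p of 0.0664 or more on every one (limma). Across all tested probes 0.831% passed that test after adjustment.

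Among the 9 measured COPII genes, 6 had a positive and 3 a negative difference (median 0.26) and none of 14 probes passed the threshold. The median was 0.27 on the first date and 0.18 on the second, and 0.13 without WT 2. Sec24 subunits bind cargo, and 3 of the 4 paralogs had positive values. Sec24d stood at 0.26, -0.24 and 0.40 log2 units in WT and at 0.86, 1.1 and 0.62 in dt27J (difference 0.72, SE 0.26, adjusted p = 0.131, limma). All dt27J arrays lay above all WT arrays, and the second-date arrays were closest, with a difference of 0.23 against 0.97 on the first date. The dimmer probe of Sec24a stood at -4.60, -4.42 and -4.92 in WT and at -3.94, -4.06 and -4.33 in dt27J (difference 0.54, SE 0.19, adjusted p = 0.128). It showed no overlap either, while the brighter Sec24a probe gave 0.34 with overlap. Sec24b gave 0.26 without overlap, and Sec24c gave -0.09 with an SE of 0.19.

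The inner coat subunits Sec23a and Sec23b gave -0.21 and -0.07 on their brightest probes, and the dimmer Sec23a probe gave 0.48. Sec13, an outer coat subunit that is also part of the nuclear pore, gave 0.50 (SE 0.30), in which dt27J 1 at 1.42 stood apart from the other dt27J arrays at 0.45 and 0.74. The GTPases Sar1a and Sar1b gave 0.26 and 0.08. The dimmer Sar1a probe gave 0.42 with all dt27J arrays above all WT arrays.

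The 7 golgins and stacking proteins had a median difference of -0.05, which became 0.03 when arrays were scaled by their medians and 0.08 after normexp background correction, and 4 of 7 were negative. It was 0.11 on the first date and -0.36 on the second. Golga5 (golgin-84, a membrane-anchored tether that captures vesicles within the Golgi) had the 1 probe that rose. On it the WT arrays stood at -3.34, -3.75 and -3.63 log2 units and the dt27J arrays at -2.15, -2.63 and -2.47. The groups did not overlap, and the difference was 1.16 on each date (SE 0.23, 2.23-fold, 95% interval 0.62 to 1.70 on the log2 scale, adjusted p = 0.049999, limma). That adjusted p lay just inside the threshold. This call was lost without the date block (adjusted p = 0.0630), without the filter on dim probes (adjusted p = 0.0984) and after normexp background correction, which reduced the difference to 0.41 (adjusted p = 0.261). It was also lost when any 1 of WT 1, WT 2, dt27J 1 or dt27J 2 was left out, with adjusted p between 0.0898 and 0.248. The brighter Golga5 probes gave 0.20 (SE 0.20) and 0.42 (SE 0.18), so the rise of the dim probe was larger than that on either of them.

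Golga4 (golgin-245 or p230, a trans-Golgi tether) was the other golgin with a large value, and its probes disagreed. Its brightest probe stood at 3.32, 2.31 and 3.43 log2 units in WT and at 4.25, 3.99 and 2.22 in dt27J, so that dt27J 3 was the lowest of all and the difference was 1.30 on the first date and -1.21 on the second (together 0.47, SE 0.54). Its dimmest probe stood at -2.71, -2.80 and -2.58 in WT and at -1.49, -2.31 and -0.91 in dt27J, without overlap and with dt27J 3 the highest (difference 1.13, SE 0.30, adjusted p = 0.0736, limma). The same array was therefore lowest on one probe and highest on the other. The middle probe gave 0.41. Golga3 gave -0.44 (SE 0.23), Golga1 -0.22 and Golga2 (GM130, the cis-Golgi tether) -0.05, with overlap on every probe. The stacking protein Gorasp1 (GRASP65) gave -0.31 (SE 0.18, adjusted p = 0.321) with all dt27J arrays below all WT arrays, and Gorasp2 (GRASP55) gave 0.13.

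Of the 5 SNAREs, which act in fusion at the cis-Golgi, Bet1 and Sec22b had the larger positive values and none of 11 probes passed the threshold. The median of the 5 was 0.26, with 0.44 on the first date, 0.04 on the second and 0.15 without WT 2. Sec22b stood at 2.34, 2.11 and 2.36 log2 units in WT and at 3.54, 3.03 and 2.40 in dt27J on its brighter probe (difference 0.72, SE 0.29, adjusted p = 0.164, limma). The dt27J arrays were all above the WT arrays, but dt27J 3 exceeded WT 3 by 0.04 only. On the dimmer probe the WT arrays stood at -0.05, -0.01 and -0.41 and the dt27J arrays at 1.78, 0.92 and 0.52, without overlap (difference 1.23, SE 0.28, 2.34-fold, adjusted p = 0.0582). In the authors' deposited values, refitted in the same way, this probe passed the threshold (1.17, adjusted p = 0.0431). Bet1 gave 0.56 (SE 0.19) on its brighter probe, with differences of 0.50 and 0.67 on the dates and no overlap, and 0.52 with overlap on the other. Among their partners in the fusion complexes, Gosr1 gave -0.06, Gosr2 0.26 and the syntaxin Stx5a -0.45 (SE 0.25), each with overlap.

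On their brightest probes the 5 cargo receptors had a median difference of 0.29 on all arrays, 0.81 on the first date and -0.63 on the second. All 5 were positive on the first date and negative on the second on these probes, but dimmer Tmed2 and Surf4 probes were not. Without WT 2 the median was 0.035. Tmed2 (p24 beta), a coat-binding receptor of COPI and COPII vesicles, stood at 5.25, 5.11 and 5.04 log2 units in WT and at 6.47, 6.36 and 4.92 in dt27J on its brightest probe. The first-date dt27J arrays were well above every WT array and dt27J 3 was below them all (difference 0.78, SE 0.31, 1.24 and -0.12 on the dates, adjusted p = 0.160, limma). On the second probe the dt27J arrays stood at 1.56, 1.55 and 2.86 against 1.23, 1.5 and 1.24 in WT, so dt27J 3 was here the highest (difference 0.67). On the dimmest probe they stood at -0.80, -1.26 and -1.29 against -1.87, -2.19 and -2.18, without overlap and with like differences of 1.0 and 0.89 on the dates (together 0.96, SE 0.22, adjusted p = 0.0600). All 3 probes were thus positive over the 6 arrays, and they differed in where dt27J 3 fell.

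Lman1 (ERGIC-53, the lectin receptor for glycoproteins that include coagulation factors) stood at 3.41, 3.08 and 3.73 log2 units in WT and at 4.08, 4.10 and 2.91 in dt27J. The first-date dt27J arrays were the highest and dt27J 3 the lowest, a difference of 0.84 and of -0.82 on the dates (interaction adjusted p = 0.0695, limma). Tmed10, the partner of Tmed2, gave 0.81 and -0.63 on its brightest probe and 0.14 and -0.14 on its dimmer one. Surf4, a receptor for soluble cargo, gave 0.51 and -0.68 on its brightest probe. The dimmer Surf4 probe went the other way, with -0.003 and 0.48. Tmed9 gave 0.21 and -0.59, with an SE of 0.41 over both dates. Of the 9 probes of these receptors, 5 had an interaction p under 0.05 before adjustment (background 27.5%) and none after.

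**Figure D3:**
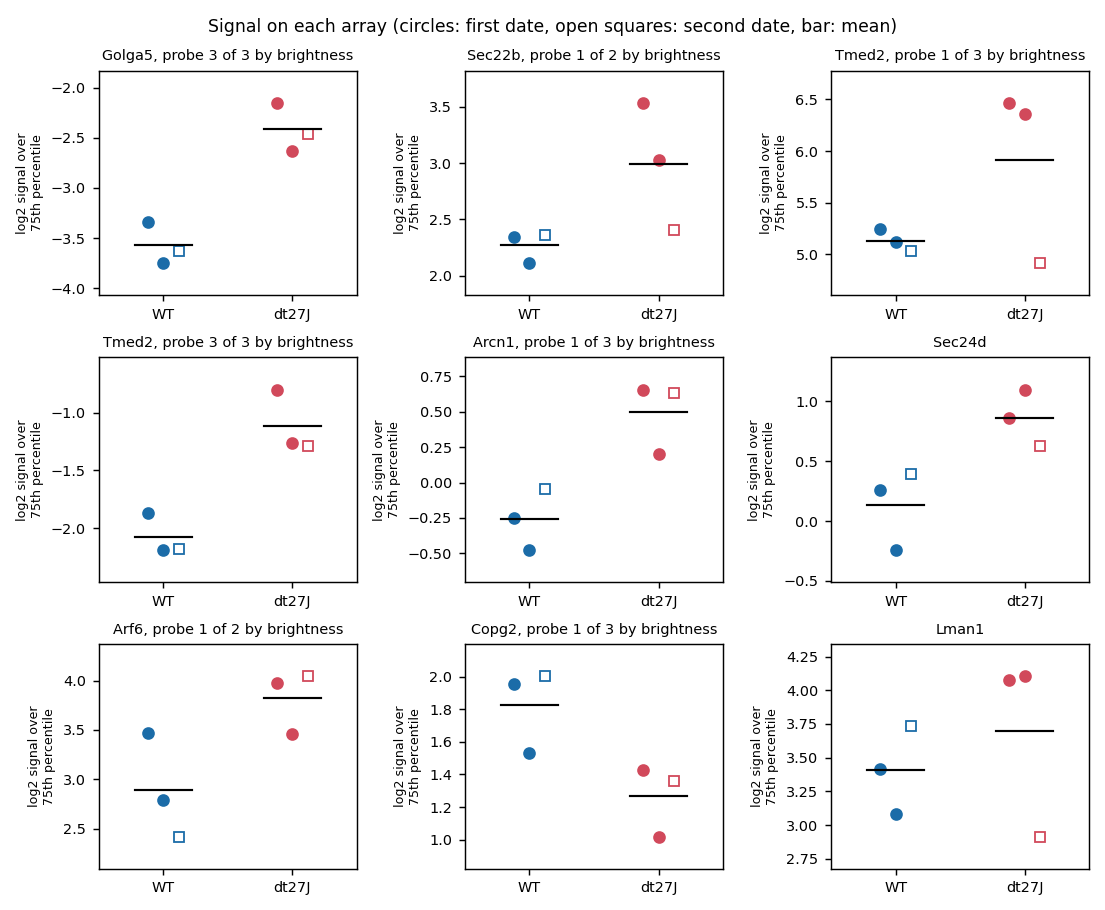
Signal of 9 probes on each array (log2 units over the 75th percentile, vertical axis, scaled separately for each probe), for WT and dt27J; circles are the first date, open squares the second, and the bar is the mean of 3 arrays. Golga5, the dimmest Tmed2 probe, Arcn1 and Sec24d show separate groups with all dt27J arrays above WT, Copg2 shows them below, and on the brightest Tmed2 probe and Lman1 the second-date dt27J array is the lowest of all.

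Over the 40 genes the difference had opposite signs on the dates for 21 (52.5%), against 43.2% of all named genes. The median was 0.26 on the first date, with 28 positive, and -0.13 on the second, with 17 positive; over all named genes it was 0.03 and -0.15. The unadjusted interaction p was under 0.05 on 17 of the 74 probes (23.0%, background 27.5%), and none passed after adjustment. When the first-date arrays alone were fitted, 11 probes passed the threshold as higher (background 12.7%) and 1, that of Arf5, as lower (background 13.2%). These 12 probes belonged to Copz2, Arf5, Sec24d, Golga4, Golga5, Bet1, Sec22b, Tmed2, Tmed10 and Lman1, and they made up 16.2% of the 74. Of all 26248 tested probes, 6805 passed in either direction on this date, which is a larger share. The first-date comparison is also the one in which WT 1 and WT 2 held the spinal cord markers and dt27J 1 and dt27J 2 held more of the muscle and fibroblast markers. The spinal cord markers had a median difference of -4.40 on the first date and 0.08 on the second, the muscle markers 2.46 and 0.41, the fibroblast and meninges markers 1.66 and -0.14, and the 5 adipocyte markers 2.33 and -1.94. The second date rests on 1 array per genotype, so its differences have no error of their own.

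**Figure D4:**
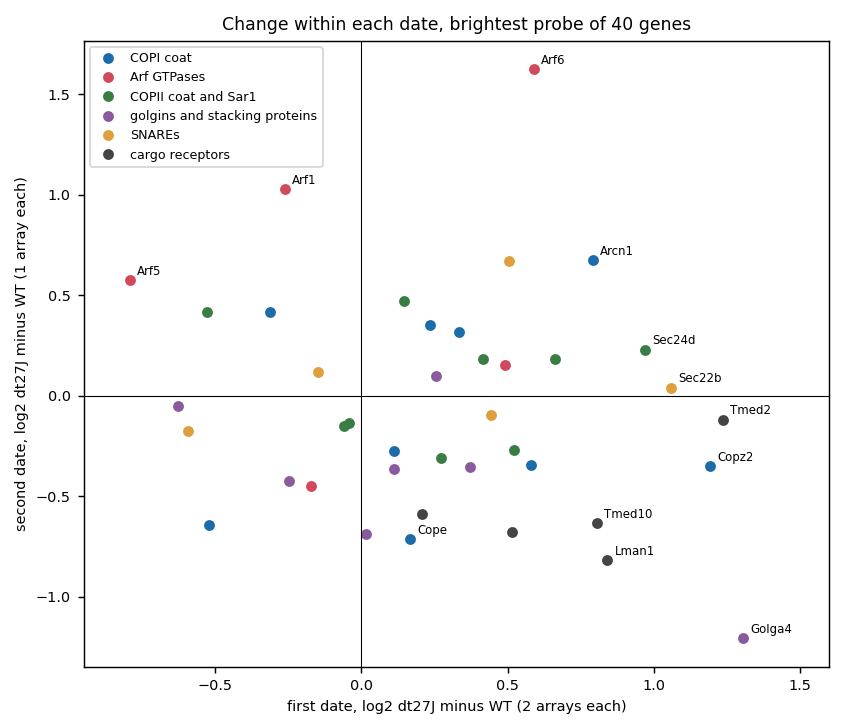
Difference in log2 signal (dt27J minus WT) on the first date (horizontal axis, 2 arrays per genotype) and on the second (vertical axis, 1 array per genotype) for the brightest probe of each of 40 genes, coloured by role. Of the 40 genes, 21 lie in the quadrants of opposite sign, with all 5 cargo receptors at the lower right and Arf1 and Arf5 at the upper left.

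Probes of one gene did not always go together. Of the 26 genes with several probes, 18 had the same sign on every probe and 8 had mixed signs, with a median spread between the highest and lowest probe of 0.31 log2 units. With the mean of all probes in place of the brightest, the median over the 40 genes was 0.11. On all 6 arrays 72 of the 74 probes stood well above background, and the exceptions were the Copb1 and Copg2 probes named above.

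Other genes of the same route, in 7 lists with 101 genes of which 94 were tested, showed no probe past the threshold by limma on the brightest probe of a gene. At an unadjusted p under 0.05, 7 were higher (7.45%) and 5 lower (5.32%). Over all tested probes 12.0% were higher and 15.7% lower, but that background counts every probe and not 1 per gene. Of the 94 differences, 52 were positive (median 0.04). The smallest adjusted p was that of Rab6a, the Rab GTPase of retrograde Golgi transport, which stood at 6.48, 6.30 and 6.70 log2 units in WT and at 5.14, 5.79 and 5.97 in dt27J. All dt27J arrays lay below all WT arrays (difference -0.87, SE 0.24, adjusted p = 0.0791). Stx6, a SNARE of the trans-Golgi and endosomes, gave 0.87 (SE 0.24, adjusted p = 0.0800), Sec16a, the scaffold of ER exit sites, 0.77 (SE 0.22, adjusted p = 0.0847) and Mcfd2, the partner of Lman1, 0.68 (SE 0.19, adjusted p = 0.0865). Arl1, the GTPase that recruits golgins of the GRIP type, gave 1.07 (SE 0.31, adjusted p = 0.0911), and Gcc1, such a golgin, 0.67 (SE 0.20). On each of these other 5 genes the dt27J arrays all lay above the WT arrays. The genes named here were those with the smallest p of the 94. Among all tested probes, 12.8% had every dt27J array above every WT array and 16.0% had them all below.

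By list, 12 of 13 Golgi resident proteins, which are glycosylation enzymes, sulfotransferases and membrane proteins, had positive differences (median 0.32). That median was 0.65 on the first date and -0.28 on the second, as for the cargo receptors. Of 17 further cargo receptors 11 were positive (median 0.28), with medians of 0.15 on the first date and -0.13 on the second, and 0.12 on all arrays with normexp. The trans-Golgi adaptors, which sort proteins towards endosomes and lysosomes, had 7 of 10 negative (median -0.29), with -0.36 and -0.28 on the dates; Gga3 gave -0.52 and Gga1 -0.47 with all dt27J arrays below WT, and Ap1b1 gave -0.68. The 26 tethers and Rab proteins, the 11 SNARE partners, the 8 regulators of COPII and the 9 regulators of COPI and Arf had medians of -0.02, -0.04, 0.07 and -0.05. Marker lists lay on either side of 0. The sensory neuron and spinal cord markers had medians of -0.58 and -2.92, and the endothelium, fibroblast and muscle markers 0.69, 0.87 and 1.87. Any link between these markers and the transport genes was not tested.

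**Figure D5:**
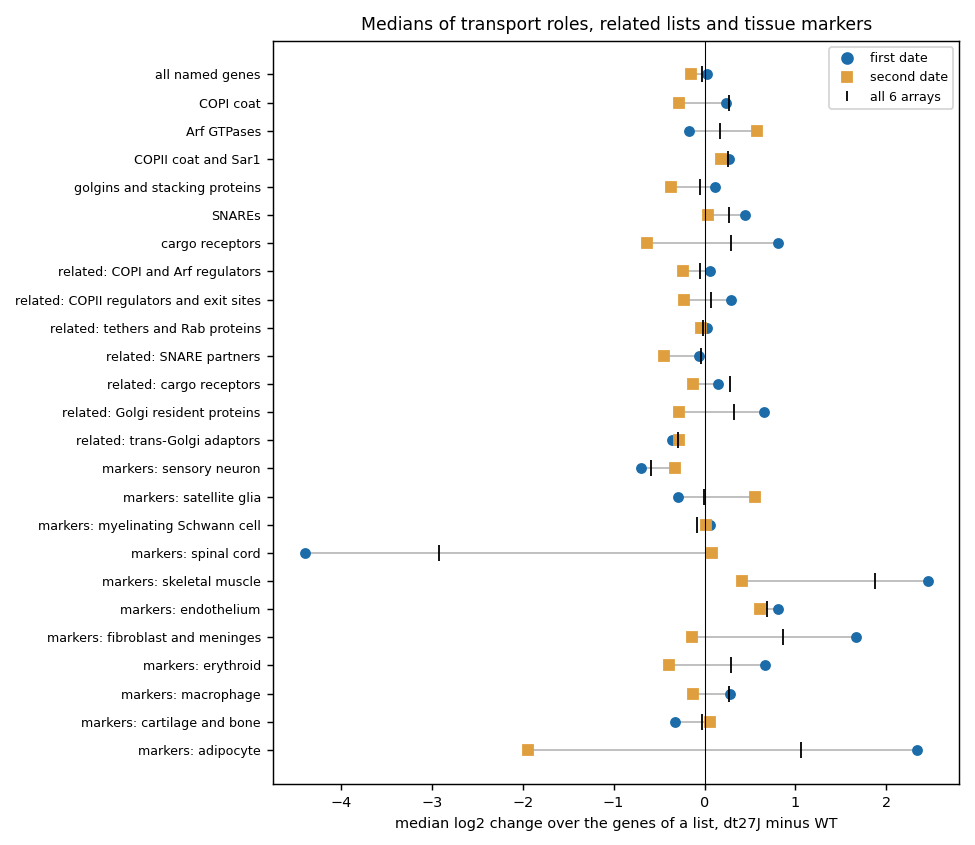
Median log2 difference (dt27J minus WT, horizontal axis) over the genes of each role, related list and tissue marker list, on the first date (circles), the second date (squares) and all 6 arrays (bars). The transport roles lie within 0.3 of 0 on all 6 arrays, while the spinal cord markers lie at -2.92 and the muscle markers at 1.87, and the cargo receptors and Golgi resident proteins change sign between the dates.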

How the data were processed

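The files hold 1 single-colour Agilent array per animal, for 3 WT and 3 dt27J ganglia (300 ng total RNA each, Cy3, per the labels' protocols). The deposited scanner files hold intensity values made with Agilent Feature Extraction 10.5.1.1, per the submitters' processing notes and the file headers; the processed signal is background-subtracted and not scaled between arrays. The value table that the authors deposited for the series gives log2 values centred on each probe, by a normalization not given in the sources used here, and served as an alternative.

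Here control and outlier spots were dropped, spots of a probe averaged on the log2 scale, and each array's 75th percentile subtracted. A probe was tested if all 3 arrays of either genotype had it well above background (26248 of 41086 with a value on all 6 arrays). Probes were named by matching accessions to a RefSeq table of GRCm38.p6; the array annotation uses another build, so no probe coordinates are given. limma 3.58.1 (lmFit, eBayes, R 4.3.3) was fitted with genotype and date as terms, with p-values adjusted by Benjamini-Hochberg over all tested probes (threshold 0.05); the date coincides with the slide. Deviations of replicates with the same number had correlations of 0.219, -0.152 and 0.062. With 3 arrays per genotype, and a date shared by the third replicates, these values cannot decide whether the numbers pair the animals. The fit was tested on simulated data.

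The brightest probe stands for a gene in counts and medians. Values per array are given for members with a probe past the threshold and, in each role, for those with the smallest p and the largest difference; other members given in full were chosen after their values were seen. The members and lists were chosen with earlier results of these data known. Alternatives were other scalings (quantile, median), the authors' values, normexp background correction, no filter or a stricter one, no date block, a replicate block, array weights, single dates, leaving out each array, and the mean over probes. Normexp with high local backgrounds replaced was added after seeing the data.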

Additional observations from a re-analysis of the deposited data

How the results depend on the processing

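Of the member probes 1 passed the threshold, and 0 did so without the date block, with a replicate block in place of the date, with normexp or without the filter on dim probes. It was 2 with the authors' values (Sec22b and Golga5), 26 with array weights, whose estimate gave WT 1 a weight of 67.4 and did not converge, 12 on the first date only, and 0 to 12 when 1 array was left out, the highest without WT 3 or dt27J 3. With high local backgrounds replaced, the 1 probe was that of Sec22b. Over all probes the 838 calls became 14 without the date block, 2 with the replicate block, 475 with normexp, 1435 with high local backgrounds replaced, 0 without the filter (8485 at an unadjusted p under 0.05 by limma), 12199 with array weights, 6805 on the first date only and 0 to 6805 with 1 array left out. The 3 Dst calls became 1 without the date block, 0 with the replicate block, 1 with normexp, 0 without the filter, 1 when all 6 arrays had to be above background, and 0 to 3 with 1 array left out. Related genes past the threshold rose from 0 to 1 with normexp and with high local backgrounds replaced, 29 with array weights, 14 on the first date only and 0 to 14 with 1 array left out. Without WT 3 or dt27J 3, the date block takes up the second-date array that is left. Both fits are therefore the first-date fit again and not separate checks, and the upper values of 12, 6805 and 14 come from it.

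The median over the 40 genes, 0.18, was -0.13 on the second date alone, and from 0.081 (without WT 2) to 0.263 with 1 array left out. The count of negative genes, 16, was 10 with median scaling, 8 with normexp and 12 to 17 with 1 array left out. Median scaling moves every difference by the same amount by design, and the median over all named genes went from -0.031 to 0.042 with it. The cause of the other changes was not tested. With the replicate block the differences, medians and signs of the members were the same by design, because genotype is balanced over both blocks. Their errors and adjusted p changed, as for Arcn1 (0.0847 to 0.152) and Sec24d (0.131 to 0.227, limma). Whether the numbers pair the animals is not known. With 3 arrays per genotype, 3 residual degrees of freedom and 3.74 from the prior, calls near the threshold depend on these settings.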
